A study of Homo sapiens with 13 samples.

Results

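Of the 11963 genes with 1 symbol on the array, 86 were solute carrier genes that met the rule used here, and their signals were followed in MCF10A cells after stimulation. The rule took every gene whose symbol began with SLC and a digit, other than SLC2A1, SLC2A3 and SLC7A11, which left 235 of 238 genes, and read each through its brightest probe set. Members were then chosen by measured brightness: the mean of the 13 deposited signals had to reach 100. The members nearest that limit were SLC35F6 at 105.7, SLC25A17 at 106.6 and SLC35C1 at 111.1, and the nearest genes outside it were SLC20A2 at 92.7, SLC4A1AP at 92.0 and SLC25A15 at 89.2. All 86 also passed the filter on dim genes, which kept 7731 genes for testing. One member, SLC2A4RG, encodes a regulator of the SLC2A4 gene and is no carrier. Members were sorted into substrate classes by family number alone, so SLC5A6, a multivitamin carrier, stands with the sugar carriers.

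MCF10A is an immortalized human mammary epithelial cell line. All groups came from this line and had been deprived of serum for 24 h, the unstimulated control included. Cells left unstimulated gave 1 array, and cells given EGF, or a mixture that the submitters call serum, gave 1 array at each of 6 times, namely 20, 40, 60, 120, 240 and 480 min. The mixture holds heat-inactivated horse serum, insulin, hydrocortisone and cholera toxin. The title of the EGF array of 20 min gives 20 min and its description 40 min, and the title was used. No condition had a replicate array, so arrays of neighbouring times were pooled into an early phase (20, 40 and 60 min) and a late phase (120, 240 and 480 min), and EGF was set against serum with time as a block. Differences are in log2 of the quantile-normalized signal plus 6, which understates the change of dim genes, and SE is their standard error. Tests were two-sided with limma, p-values were adjusted over the 7731 genes, and the threshold was 0.05. The p-values measure only the spread between these arrays, and precision is limited by the number of arrays. Fewer cells of a kind and less RNA per cell cannot be told apart in such bulk RNA.

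Solute carriers are membrane proteins that move nutrients, ions, vitamins and metabolites across the plasma membrane or into organelles. Many couple the movement of a substrate to a sodium, proton or exchange gradient, and some work as pairs, such as the amino acid exchanger SLC7A5 with its partner SLC3A2. Growth factors and insulin are known to act on nutrient uptake in epithelial cells, partly through carrier genes and partly through carrier proteins already made, which RNA does not show.

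The promoters of 3 members are shown because SLC26A2 and SLC1A3 carry the only calls among the members and SLC20A1 is the brightest ion carrier of the set. Each is the stretch of 250 bases before a RefSeq start site on GRCh38.p14, plus strand, with the letters of a searched motif in capitals. SLC26A2 (chr5:149960508-149960757) holds an E-box, CACGTG, starting 24 bases before the start site and a core CREB motif, TGACG, starting 20 bases before it. The 2 share letters, and the capitals mark the joined run. SLC20A1 (chr2:112645689-112645938) holds an E-box at -206 and, at -100, the core CREB motif on the other strand, CGTCA. SLC1A3 has 3 start sites in RefSeq, and the window before the first (chr5:36596338-36596587) holds a site of the kind bound by ATF4 with C/EBP factors, TGATGNAA, at -220. No searched motif was in the window before its second start site. The window before the third matches the searched AP-1 pattern TGANTCA, where N is any letter, at -128 as TGAATCA and at -26 as TGAGTCA.
SLC26A2: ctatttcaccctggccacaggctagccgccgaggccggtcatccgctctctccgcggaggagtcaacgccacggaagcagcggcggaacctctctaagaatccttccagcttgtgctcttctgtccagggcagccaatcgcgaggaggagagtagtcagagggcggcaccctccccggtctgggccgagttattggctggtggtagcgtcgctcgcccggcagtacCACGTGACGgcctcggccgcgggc
SLC20A1: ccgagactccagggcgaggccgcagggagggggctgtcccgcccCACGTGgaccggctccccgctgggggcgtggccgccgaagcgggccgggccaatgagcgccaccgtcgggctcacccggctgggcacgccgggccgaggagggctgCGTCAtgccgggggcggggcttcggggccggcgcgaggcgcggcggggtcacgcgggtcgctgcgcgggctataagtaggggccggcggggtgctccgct
SLC1A3: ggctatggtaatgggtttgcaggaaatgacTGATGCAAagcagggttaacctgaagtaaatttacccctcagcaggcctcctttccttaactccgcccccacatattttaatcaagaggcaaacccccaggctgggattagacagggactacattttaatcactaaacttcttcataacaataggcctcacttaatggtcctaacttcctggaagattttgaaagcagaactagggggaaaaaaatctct
Of the 86 members 74 matched the promoter table, with 114 windows. Motifs, 6 in all, were searched on both strands. The core CREB motif TGACG was in 32.5% of the members' windows and in 21.2% of all 35116 windows of that length, the full CREB site TGACGTCA in 2.63% and 1.65%, and the E-box CACGTG in 14.9% and 6.34%. The AP-1 pattern TGANTCA was in 4.39% and 6.57%, the ATF4 and C/EBP site in 2.63% and 3.14%, and the steroid receptor motif TGTTCT in 8.77% and 12.4%. Every full CREB site is also counted as a core motif. The members were chosen by brightness and the full set of windows was not, so these shares are not matched for expression. The cause of the gaps between them was not tested. These are matches of letters, and no binding was measured.

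The brightest member was SLC7A5, the L-type exchanger for large neutral amino acids, with a mean signal of 5832. The sodium-coupled amino acid carrier SLC38A2 averaged 4199, the phosphate carrier SLC20A1 3498, the mitochondrial phosphate carrier SLC25A3 2978, and the zinc carriers SLC39A6 and SLC30A1 2708 and 2255.5. Signals of different probe sets depend on their probes, so this order is not an order of RNA amount. The median member averaged 265, and 15 members exceeded 1000. Most members moved little: over the 13 arrays the median member spanned 0.78 on the log2 scale between its lowest and highest normalized value, against 0.83 for all genes tested. The range exceeded 2-fold in 16 members (18.6%) and in 35.4% of all genes tested; the members' lower limit on signal keeps dim genes out of the first share only. SLC25A3 had the narrowest span at 0.30, and SLC26A2 the widest at 2.41. The map of all members by array shows this, and SLC26A2 has the strongest colours of opposite sign in its EGF and serum columns.

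**Figure D1:**
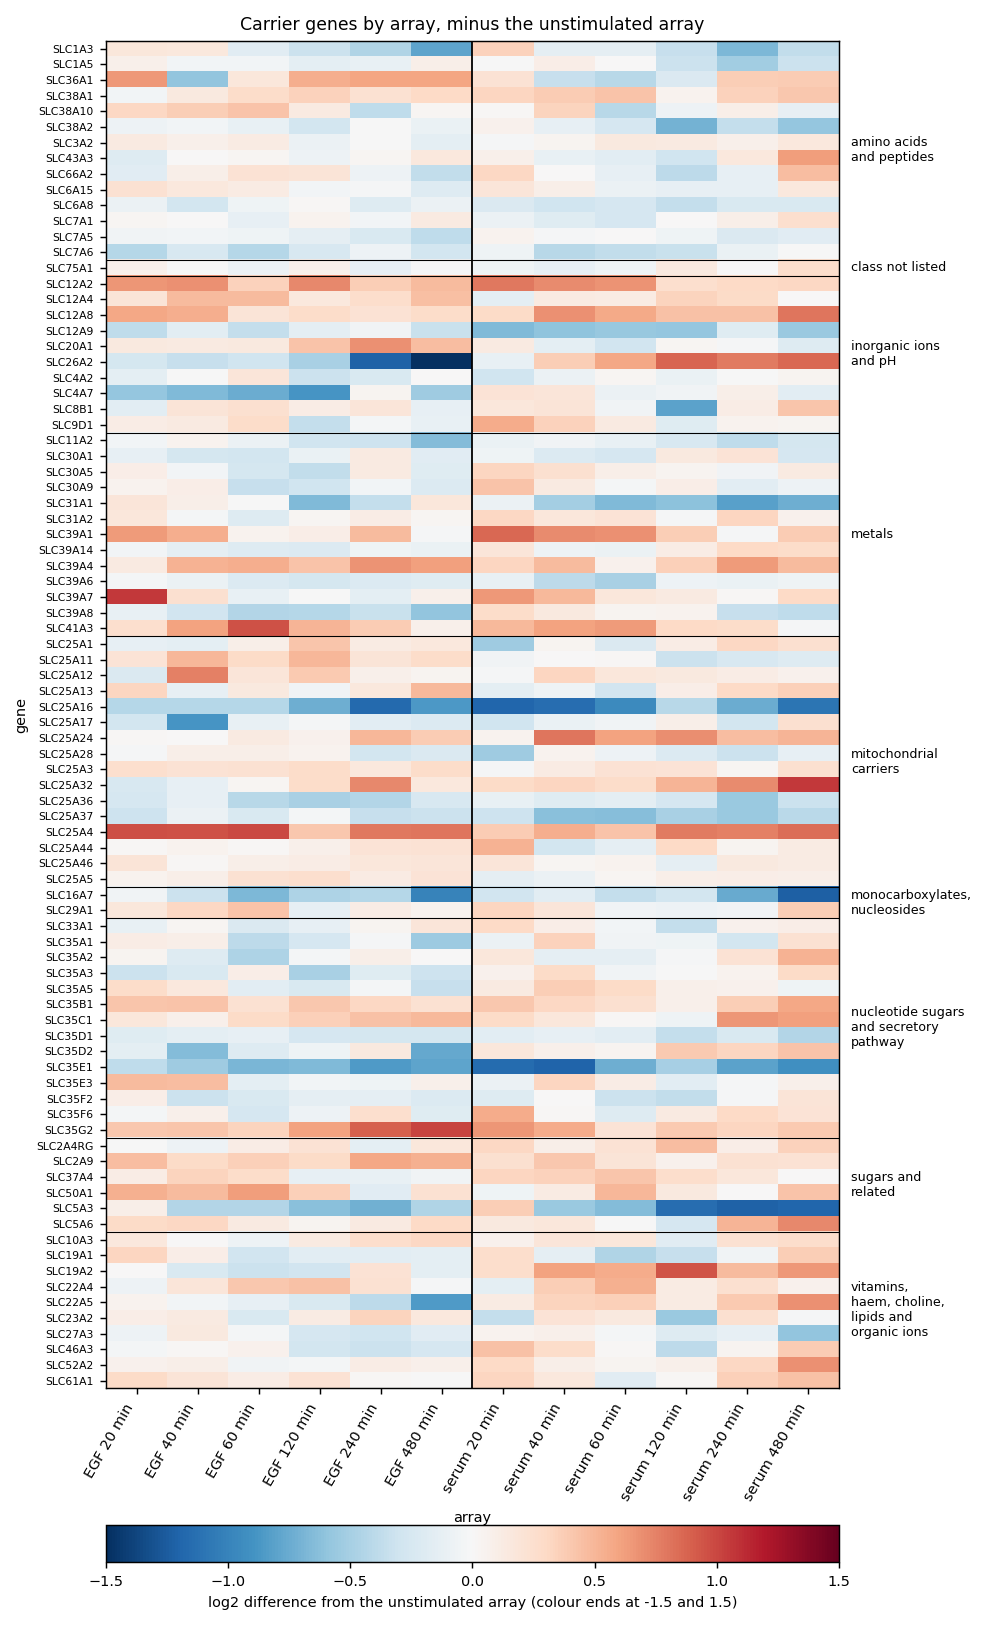
Rows are the 86 carrier genes grouped by substrate class, columns are the 6 EGF and 6 serum arrays, and colour is the log2 difference of normalized values from the 1 unstimulated array, with 1 array per cell. The row of SLC26A2 runs from -1.54 at 480 min of EGF to 0.87 at 120 and 480 min of serum, and the class not listed is SLC75A1 alone.

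Late after stimulation, SLC26A2 RNA was lower in EGF than in serum, and it was the only one of the 86 members past the threshold in that comparison. SLC26A2 is a sulfate transporter of the plasma membrane, and the sulfate it brings in is used to sulfate proteoglycans. Its signal was 1430.3 in unstimulated cells. After EGF it was 1273, 1194, 1232, 1074, 658 and 527 at 20, 40, 60, 120, 240 and 480 min, and after serum it was 1346, 1992, 2299, 2794, 2705 and 2876 at the same times. Both courses started near the unstimulated signal at 20 min and then parted: every serum array from 40 min on stood above it and every EGF array below it. In the late phase EGF was below serum by 3.79-fold (log2 -1.92, SE 0.22, n = 3 pairs, limma adjusted p = 0.0221), with no overlap between the late EGF and late serum arrays. Over all 6 times the difference was -1.25 (SE 0.28, adjusted p = 0.0845), with EGF lower in 6 of 6 pairs. In the early phase it was -0.58 (SE 0.22, adjusted p = 0.313), and the test of whether the late difference exceeded the early one gave -1.34 (SE 0.32, adjusted p = 0.274). Within each stimulus, late minus early was -0.78 in EGF (SE 0.24, adjusted p = 0.203) and 0.57 in serum (SE 0.24, adjusted p = 0.218). The late call was lost without either array of 40, 240 or 480 min, at adjusted p = 0.0678, 0.128 and 0.102, while the size stayed between -2.21 and -1.68 over all alternatives. The summed signal of the 9 epithelial markers measured also differed, at 24102 to 27518 in late EGF and 30323 to 30662 in late serum. Of the 9, limma called 0 in late EGF minus serum, with a median of -0.27 and 2 values above 0. CDH1 had the largest difference, at -0.74 (SE 0.13, limma adjusted p = 0.0691). The part of these markers in the SLC26A2 difference was not tested.

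The 1 member called is set against a background of 0.75% of all genes tested (58 of 7731) in the late EGF and serum comparison. At an unadjusted p under 0.05 there were 15 members of 86 (17.4%) and 18.9% of all genes. With a variance trend and robust variances 10 members were called, and 6 under a stricter filter on dim genes. The share of all genes called is given for the main fit only. Counts under other settings therefore cannot be read as an excess among carriers. The members' differences ran from -1.92 to 0.58 with a median of -0.06, against 0.01 for all genes, and 52 of them were below 0. Late EGF arrays lay wholly above late serum arrays for 12 members, against 11.7% of all genes tested, and wholly below for 10 members, against 10.8%. The corresponding share of the members was 11.6% for those wholly below, near that of all genes. Over all 6 times limma called 0 members, against a background of 0.129%, and 9 with a variance trend and robust variances. At an unadjusted p under 0.05 there were 18 members (20.9%) and 20.6% of all genes. In normalized value, every EGF array of any time lay above every serum array for 1 member, SLC25A11, against 0.828% of genes. Every EGF array lay below every serum array for 3, SLC19A2, SLC22A5 and SLC26A2, against 1.35%. In the early phase 0 members and 0.0% of genes were called, with 12 members (14%) and 14.5% of genes at an unadjusted p under 0.05 and 3 members called under the trended variances. The interaction of stimulus and phase gave 0 members against a background of 0.0259%, with 8 members (9.3%) and 11.2% of genes at an unadjusted p under 0.05 and 2 members called under the trended variances.

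**Figure D2:**
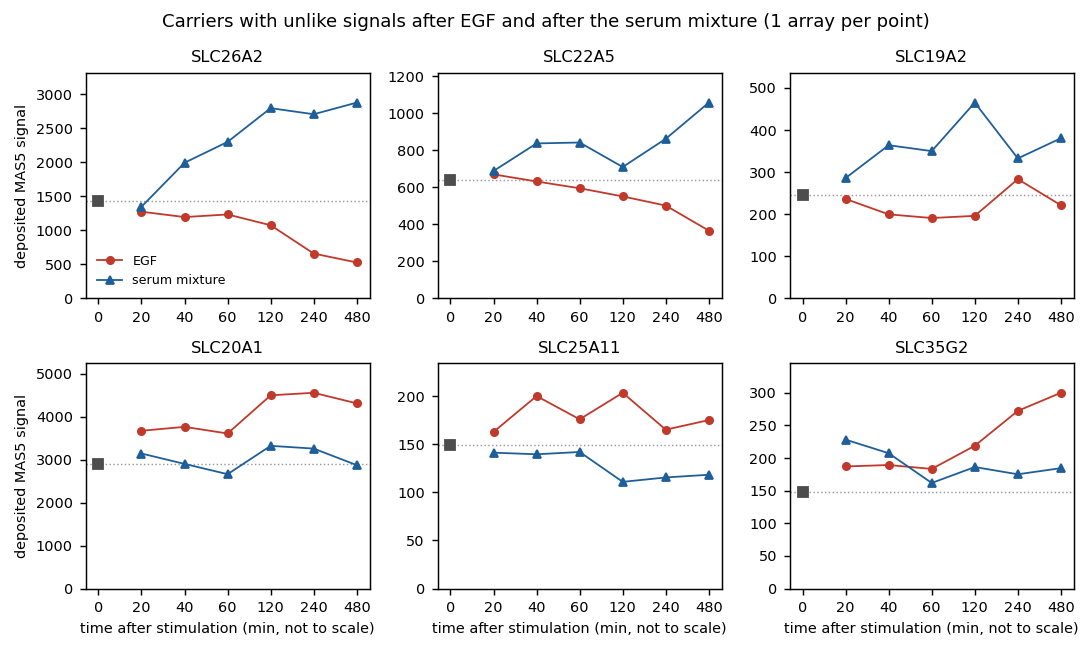
Deposited MAS5 signal (linear axis from 0) of 6 carriers against time after stimulation, with EGF as red circles, the serum mixture as blue triangles and the unstimulated array as a grey square and dotted line; each point is 1 array, so there are no error bars. SLC26A2 and SLC22A5 end at 527 and 366 after EGF and at 2876 and 1057 after serum, and SLC20A1 is above serum in EGF at every time.

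Other carriers of ions had values in this contrast that did not pass the threshold. SLC20A1, a sodium-coupled phosphate carrier of the plasma membrane, was at 2909 unstimulated, at 3672, 3764, 3609, 4498, 4557 and 4310.4 after EGF and at 3143, 2901, 2662, 3322, 3258 and 2873 after serum. The late EGF arrays were all brighter than any serum array, and the late difference was 0.58 (SE 0.12, adjusted p = 0.0861). SLC4A7, a sodium bicarbonate carrier, was at 194 unstimulated, at 123, 115, 110.0, 97.3, 194 and 129 after EGF and at 217, 208, 173, 177, 196 and 163 after serum, and EGF was lower in 6 of 6 pairs (-0.59, SE 0.12, adjusted p = 0.0727). Its 3 other, dimmer probe sets disagreed, at -0.44, 0.47 and 0.38 over all times, and with the mean of all its probe sets the difference was -0.03. The sodium, potassium and chloride carrier SLC12A2 was at 236 unstimulated and stood at 271 to 394 on the 12 stimulated arrays. Its early minus unstimulated value was 0.64 (SE 0.16, adjusted p = 0.285). SLC9D1, numbered with the sodium and proton exchangers, was at -0.36 late minus early (SE 0.10, adjusted p = 0.0606), with its 6 late arrays all below its 6 early ones.

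Vitamin and carnitine carriers were among the members with the lowest values in EGF relative to serum. SLC22A5, the sodium-coupled carnitine carrier, was at 642 unstimulated, at 669.7, 631, 595, 551, 501 and 366 after EGF and at 688, 837, 842, 709, 862 and 1057 after serum. Its serum arrays were all above its EGF arrays of the same time, and the late difference was -0.89 (SE 0.22, 1.85-fold, adjusted p = 0.112). SLC19A2, a thiamine carrier, was at 245 unstimulated, at 236, 199.7, 191, 196, 283 and 221 after EGF and at 286, 364, 350.0, 465, 333 and 381 after serum. No EGF array reached the lowest serum array, and the difference over all times was -0.71 (SE 0.14, 1.64-fold, adjusted p = 0.0668). The folate carrier SLC19A1, of the same family, ran from 227 to 410 with no such order. The riboflavin carrier SLC52A2 was at 539 to 614 after EGF and at 912 in serum at 480 min. The 10 members of the class had a late median of -0.17, with 4 values above 0 and 6 below.

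Mitochondrial carriers, the largest class with 16 members, showed values of both signs. SLC25A11, which exchanges oxoglutarate for malate across the inner mitochondrial membrane, was at 149 unstimulated, at 163, 200.3, 176, 204, 165 and 175 after EGF and at 141, 139.7, 142, 111, 116 and 118 after serum. Every EGF array was above every serum array, with a difference of 0.46 over all times (SE 0.09, 1.37-fold, adjusted p = 0.0724) and of 0.58 in the late phase (SE 0.12, adjusted p = 0.0838). Its second, dimmer probe set gave -0.13 late. SLC25A4, an ADP and ATP exchanger, was at 86.6 in the unstimulated array and at 109 to 168 on the 12 stimulated ones. Its values against the unstimulated array were 0.71 early (SE 0.15, adjusted p = 0.235) and 0.73 late (SE 0.15, adjusted p = 0.126), both higher in 6 of 6 arrays. SLC25A5, the brighter gene of that exchanger family, ran from 1693 to 2360. The class had a late EGF minus serum median of 0.01, with 9 values above 0 and 7 below.

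Carriers of nucleotide sugars feed glycosylation in the Golgi and endoplasmic reticulum. SLC35D2, a nucleotide sugar carrier, was at 142 unstimulated, at 122, 84.1, 119, 129, 152 and 76.2 after EGF and at 159, 140.1, 138, 178, 167 and 180.4 after serum. EGF was lower in 6 of 6 pairs (-0.52, SE 0.14, adjusted p = 0.112) and in the late phase by -0.62 (SE 0.20, adjusted p = 0.191). Its second, dimmer probe set did not show this, at 0.13 over all times and -0.03 late. The related SLC35A3, which carries UDP-N-acetylglucosamine, was at -0.44 late (SE 0.15). SLC35G2, of the same family, went the other way: it was at 149 unstimulated, at 187, 189, 183, 219, 272 and 300.0 after EGF and at 228, 207, 162, 186, 175 and 185 after serum, with a late difference of 0.47 (SE 0.13, adjusted p = 0.137). The 14 members of the class had a late median of -0.06, with 5 values above 0 and 9 below.

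**Figure D3:**
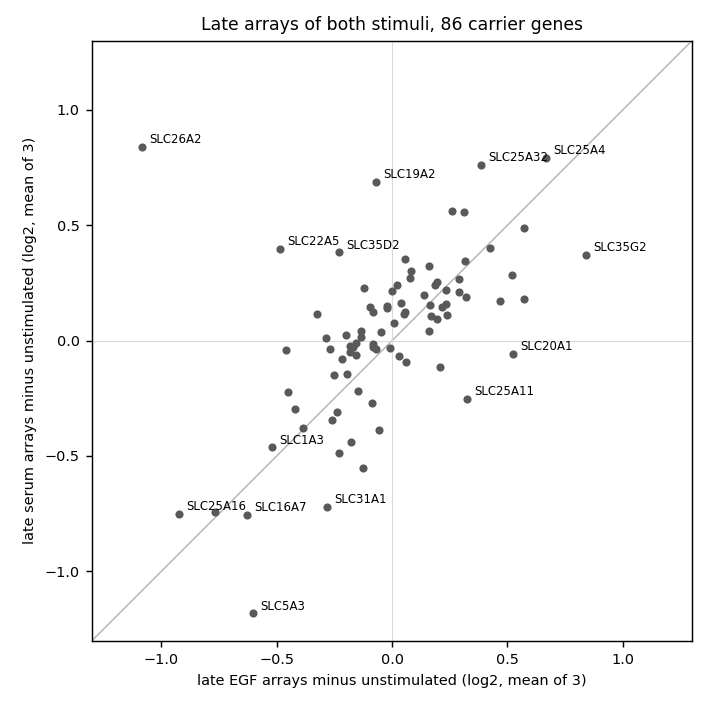
Each of the 86 carriers is placed by its mean over the 3 late EGF arrays (x axis) and the 3 late serum arrays (y axis), both as log2 differences from the 1 unstimulated array, which they share; the grey diagonal marks equal values. SLC26A2 lies farthest from the diagonal, at the upper left, and SLC20A1, SLC25A11 and SLC35G2 lie to its right below the diagonal.

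Over time after stimulation, SLC1A3 RNA was lower late than early, and it was the only member past the threshold. SLC1A3 is a high-affinity carrier for glutamate and aspartate, best known from glial cells. Its signal was 387 unstimulated, 433, 423, 344, 308, 286 and 225 after EGF and 482, 344, 347, 299, 238 and 296 after serum. The 6 late arrays all lay below the 6 early ones in normalized value, and late minus early was -0.53 (SE 0.12, 1.44-fold, n = 6 and 6, limma adjusted p = 0.0449). The value was -0.57 in EGF (SE 0.18, adjusted p = 0.205) and -0.49 in serum (SE 0.18, adjusted p = 0.16). Without both arrays of 20 min it was -0.42 (adjusted p = 0.12), and 9 of the 13 single-array omissions ended the call: EGF at 20, 40, 240 and 480 min and serum at 20, 40, 60, 240 and 480 min. CD14, a marker of another cell type, fell in the same comparison (-0.80, SE 0.15, adjusted p = 0.022), while PTPRC and VWF had signals of at most 12.8 and 5.1 on every array. The summed signal of the 11 markers of other cell types, 3 of which passed the filter on dim genes, was 296 to 430 late in EGF and 429 to 485 early, and 329 to 362 late in serum and 455 to 626 early. Its part in the SLC1A3 value was not tested.

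That 1 call among 86 members stands beside a background of 3.47% for late minus early (268 of 7731 genes). At an unadjusted p under 0.05 there were 22 members (25.6%) and 23.9% of all genes, and the median was -0.02 for the members and 0.02 for all genes. The members' differences ran from -0.62 to 0.48, with 46 below 0. Late values lay wholly above early ones for 1 member, SLC25A1, against 1.16% of genes, and wholly below for 5, SLC11A2, SLC1A3, SLC27A3, SLC35D1 and SLC9D1, against 1.63%. Within EGF limma called 0 members against a background of 0.246%, with 14 members (16.3%) and 14.5% of genes at an unadjusted p under 0.05. Within serum it called 0 members against 1.33%, with 18 members (20.9%) and 20.2% of genes at that unadjusted p, and 4 members under the trended variances. The number called over both stimuli was 9 under the trended variances and 8 under a stricter filter on dim genes. For these settings too the share of all genes called is not given.

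**Figure D4:**
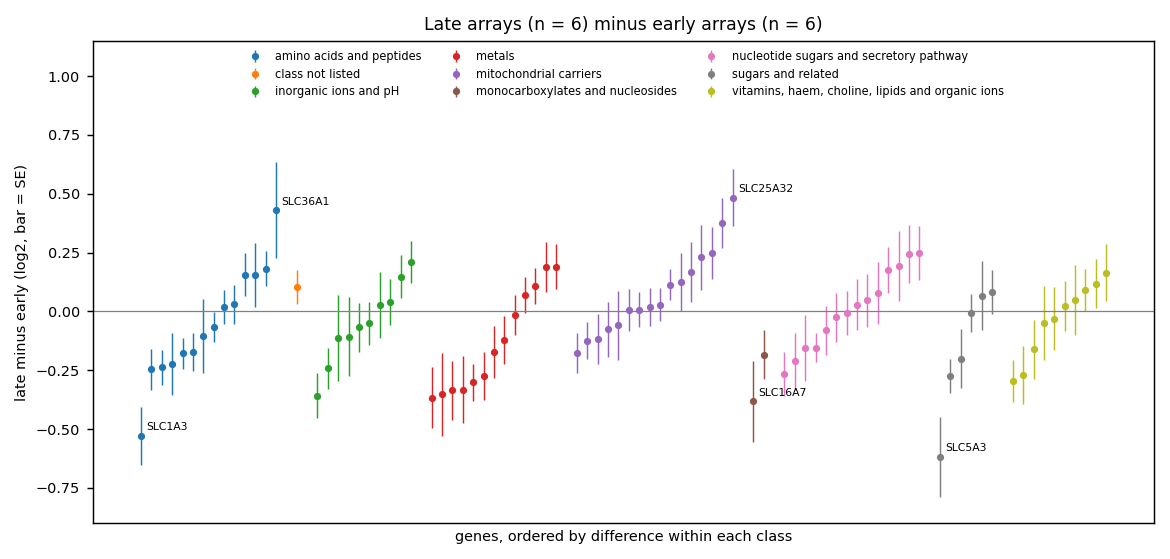
Late minus early difference (log2 of normalized signal plus 6) of each of the 86 carriers, ordered by size within its substrate class; points are estimates over 6 late and 6 early arrays and bars are 1 standard error. SLC5A3 has the lowest value at -0.62 and SLC25A32 the highest at 0.48, and SLC1A3 at -0.53 is the one past the threshold.

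Sugar and related carriers held the member with the lowest late minus early value. SLC5A3 imports myo-inositol, an osmolyte and lipid precursor, with sodium. It was at 1352 unstimulated, at 1549, 1069, 1064, 925, 873 and 1053 after EGF and at 1748, 978, 919, 643, 621 and 630.3 after serum. Both 20 min arrays were the highest of their courses, and the 3 late serum arrays were the lowest of the 13. Late minus early was -0.62 (SE 0.17, 1.53-fold, adjusted p = 0.066), -0.90 in serum (SE 0.24, adjusted p = 0.0813) and -0.34 in EGF (SE 0.24). Against serum, late EGF was at 0.58 (SE 0.13, adjusted p = 0.0907). A second probe set of the gene showed the same order, at 1039 unstimulated, 1749.6 after EGF and 1826 after serum at 20 min, and 534.5 in serum at 480 min, with late minus early at -0.64. SLC37A4, the glucose-6-phosphate carrier of the endoplasmic reticulum, was at -0.28 late minus early (SE 0.07, adjusted p = 0.0568). Its late arrays ran from 131 to 171 and its early ones from 153 to 191.

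Metal carriers, 13 members, had 9 late minus early values below 0 and a median of -0.17, beside a median of 0.02 over all genes tested. SLC11A2, the proton-coupled iron carrier also known as DMT1, was at 397 unstimulated, at 383, 403, 369, 321, 324 and 256 after EGF and at 363, 379.9, 361, 333, 300.0 and 328 after serum. All 6 late arrays lay below all 6 early ones, with a difference of -0.30 (SE 0.08, 1.23-fold, adjusted p = 0.0578). Its next probe set gave -0.16. The copper importer SLC31A1 was at 338 unstimulated, at 379.5, 352, 335, 212, 265 and 389.9 after EGF and at 311, 233, 208, 216, 186 and 195 after serum. Its serum arrays from 40 min on were at most 233, while EGF stood at 390 at 480 min, and EGF minus serum over all times was 0.47 (SE 0.13, adjusted p = 0.109). Of the zinc carriers, SLC30A1, which exports zinc from the cytosol, ran from 1987 to 2894 with late minus early at 0.19 (SE 0.10, adjusted p = 0.259). The importer SLC39A14 was at 1226.5 to 1371 after EGF and at 1337 to 1805 after serum, with a late difference of -0.35 (SE 0.09, adjusted p = 0.132). SLC39A8, a zinc and manganese importer, was lower late than early by value (-0.28, SE 0.10, adjusted p = 0.128). The brightest zinc carrier, SLC39A6, spanned 2229.5 to 3096. SLC39A1 was at -0.51 late minus early in serum (SE 0.18, adjusted p = 0.159).

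Mitochondrial carriers held the member with the highest late minus early value. SLC25A32, which carries folate and flavin cofactors into mitochondria, was at 409 unstimulated, at 339, 366, 412, 493, 679 and 463 after EGF and at 489, 516, 491, 578, 675 and 866 after serum. The highest array was serum at 480 min, and late minus early was 0.48 (SE 0.12, 1.40-fold, adjusted p = 0.0522), with 0.50 in EGF and 0.47 in serum. SLC25A1, the citrate exporter of mitochondria, was at 122 unstimulated, at 105, 102, 125, 156, 126 and 131 after EGF and at 83.7, 116, 97.2, 123, 142 and 132 after serum. Its late values were all above its early ones once normalized, and the difference was 0.37 (SE 0.11, adjusted p = 0.0712). The phosphate carrier SLC25A3 was at 0.03 (SE 0.07, adjusted p = 0.836).

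Amino acid carriers, 14 members, had 8 late minus early values below 0 and a median of -0.08. SLC7A5 was at 5708 unstimulated, at 6279.6, 6809, 6145, 6179, 4621 and 4742 after EGF and at 5194, 5896, 6162, 6426, 5566 and 6085 after serum. Late minus early was -0.18 (SE 0.07, adjusted p = 0.131), and its lowest arrays were EGF at 240 and 480 min. Its partner SLC3A2 ran from 1814 to 2439 with a value of -0.07 (SE 0.06, adjusted p = 0.57). SLC38A2, which imports small neutral amino acids, was at 4353 unstimulated, at 4814, 5097, 4654, 4195, 4302 and 4399 after EGF and at 4153, 4325, 4149, 2975, 3767 and 3405 after serum. Its lowest arrays were the late serum ones, and late EGF minus serum was 0.43 (SE 0.10, 1.34-fold, adjusted p = 0.111). This gene is read by a probe set whose name ends in _x_at, the Affymetrix mark for probes that may bind other transcripts; a second probe set without that mark gave 0.35. Quantile normalization matters at this brightness: EGF at 20 min exceeds the unstimulated signal as deposited and is 0.07 below it on the normalized log2 scale. The same reversal held for SLC7A5 in EGF at 20, 40, 60 and 120 min. Its normalized differences from the unstimulated array there were -0.06, -0.04, -0.07 and -0.14.

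Other amino acid carriers also had values short of the threshold. The glutamine carrier SLC1A5 was at 612 unstimulated, at 646, 602, 602, 552, 573 and 659 after EGF and at 602, 674, 616, 490.4, 429 and 499.5 after serum. Its late serum arrays were the lowest 3, and late minus early was -0.24 (SE 0.07, adjusted p = 0.0861). The cationic amino acid carrier SLC7A1 ran from 1339 to 1962 with late minus early at 0.18 (SE 0.07, adjusted p = 0.162). One of its other probe sets was at 472 to 503 early in serum against 702 to 807 early in EGF, where the brightest probe set was at 1339 to 1448 and 1432 to 1648. The lysosomal carrier SLC36A1 was at 0.43 late minus early (SE 0.20, adjusted p = 0.223), with its lowest array, 84.6, at 40 min of EGF. SLC16A7, a monocarboxylate carrier, was at 897 unstimulated and had its lowest array, 390, at 480 min of serum. Its late minus early value was -0.38 (SE 0.17, adjusted p = 0.208) and its late minus unstimulated value -0.69 (SE 0.32, adjusted p = 0.44).

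**Figure D5:**
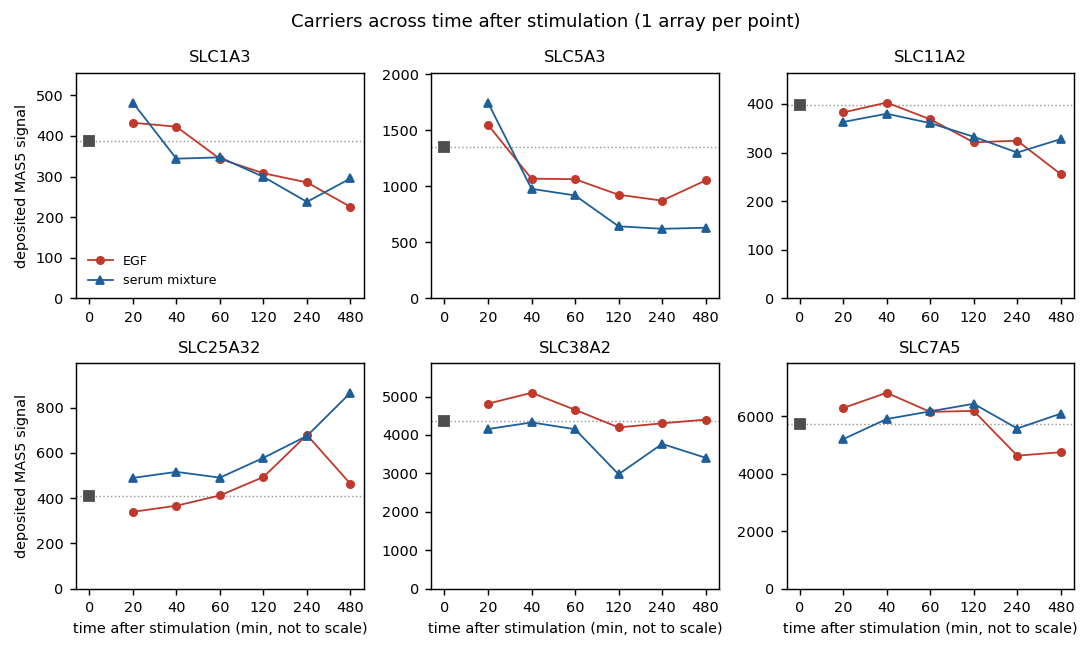
Deposited MAS5 signal (linear axis from 0) of 6 carriers against time after stimulation, with EGF as red circles, the serum mixture as blue triangles and the unstimulated array as a grey square and dotted line; each point is 1 array, so there are no error bars. SLC1A3 and SLC11A2 run downward in both courses, to 225 and 256 in EGF at 480 min, and SLC25A32 is highest at 866 in serum at 480 min.

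Several members not named so far stood out on single arrays or in order only. SLC43A3, a purine base carrier of an amino acid carrier family, was at 854 to 1185 on 12 arrays and at 1631 in serum at 480 min. The multivitamin carrier SLC5A6 was at 230 unstimulated, at 229 to 281 after EGF and at 183.0 to 373 after serum, and its highest array was again serum at 480 min. SLC39A7, a zinc carrier of the secretory pathway, was highest at 20 min, at 376 in EGF and 282.5 in serum, against 162 to 252 on the other arrays. SLC8B1, which exports calcium from mitochondria in exchange for sodium, had its lowest array, 74.9, in serum at 120 min and its highest, 182, in serum at 480 min. None of these patterns has a second array of the same condition behind it.

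By contrast, SLC27A3 and SLC35D1 differed little in size but kept an order between the phases. SLC27A3, of the fatty acid transport protein family, was at 252 to 295 on the early arrays and at 174 to 247 on the late ones, with late minus early at -0.30 (SE 0.09, adjusted p = 0.0859). SLC35D1, a nucleotide sugar carrier of the endoplasmic reticulum, was at 885 to 946 early and at 756 to 880.2 late. The steadiest carriers, with a highest signal at most 1.34 times the lowest, included SLC3A2, the mitochondrial outer membrane protein SLC25A46 (228 to 297), the neutral amino acid carrier SLC6A15 (530.3 to 695) and the creatine carrier SLC6A8 (299 to 394). SLC6A8, SLC30A5, SLC38A2, SLC25A16 and SLC35E1 are the 5 members read by probe sets with the _x_at mark. A dimmer probe set of SLC6A8 without that mark was less steady, at 204 to 350, with late EGF minus serum at 0.51.

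In comparison with unstimulated cells 0 members were called by limma early and 0 late, beside backgrounds of 0.0% and 0.0129%. At an unadjusted p under 0.05 there were 11 members each time (12.8%), beside 7.62% of all genes early and 11.7% late, and the trended variances also called 0 in both. The control of these comparisons is 1 array, whose own deviation enters every value. The 2 lowest early values belonged to probe sets with the _x_at mark, while the lowest late value was that of SLC5A3, at -0.89 (SE 0.32, adjusted p = 0.318). SLC35E1 was at 728 unstimulated, at 556, 504, 449.8, 464, 414 and 433 after EGF and at 322, 311, 434, 516, 423 and 389 after serum, with -0.78 early (SE 0.20, adjusted p = 0.311) and -0.75 late (SE 0.20, adjusted p = 0.198). Its 2 other probe sets lack the mark and are dimmer. One was at 109.7 unstimulated, 67.1 to 105.9 early and 97.0 to 111.2 late. The other was at 102.9 unstimulated, 63.4 to 108.2 early and 42.9 to 119.5 late. SLC25A16 was at 622 unstimulated, at 462, 456, 461, 374, 280.0 and 349 after EGF and at 272, 280.4, 319.5, 467, 371 and 291 after serum, with -0.76 early (SE 0.22, adjusted p = 0.399) and -0.84 late (SE 0.22, adjusted p = 0.198). Its other probe sets, without the mark, were dim, with mean signals of 17.8 and 30.1. The brighter of them was at 28.9 unstimulated and at 20.4 to 44.2 on the stimulated arrays. The magnesium carrier SLC41A3 peaked at 350.5 at 60 min of EGF from 184 unstimulated, with an early value of 0.59 (SE 0.24, adjusted p = 0.587). On single arrays at 480 min, 4 members were at least 1.5-fold above the unstimulated array after EGF, against 7.74% of genes, and 9 were as far below, against 7.77%. After serum 10 members were above, against 9.47%, and 6 below, against 9.82%. SLC25A4 was above after both stimuli, SLC16A7, SLC25A16 and SLC35E1 were below after both, and SLC22A5 and SLC26A2 were below after EGF and above after serum.

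Genes that work beside the carriers were taken from 4 lists. Of 14 tested genes of the amino acid response, by which cells answer a shortage of amino acids, 1 was higher late than early: TRIB3, a pseudokinase (0.66, SE 0.14, adjusted p = 0.0336). Within EGF its value was 1.41 (SE 0.20, limma adjusted p = 0.0204), while within serum 0 genes of the list were called. The interaction of stimulus and phase for TRIB3 was 1.49 (SE 0.23, limma adjusted p = 0.2). In late EGF minus serum TRIB3 was higher (1.56, SE 0.16, adjusted p = 0.0205) and DDIT4, an inhibitor of mTOR signalling, was lower (-0.76, SE 0.11, adjusted p = 0.0455). Of all genes tested, 3.47% were called in late minus early, 0.246% within EGF, 1.33% within serum and 0.75% in late EGF minus serum. The list's late EGF minus serum median was 0.11, against 0.01 for all genes tested, and 6 of its 14 genes had an unadjusted p under 0.05 in late minus early and 7 in late EGF minus serum. Of 15 aminoacyl-tRNA synthetases, 14 metal handling genes and 17 sodium, calcium and proton pumps, limma called 0 in late minus early (4, 1 and 4 at an unadjusted p under 0.05) and 0 in late EGF minus serum (4, 4 and 6). The shares of all genes at that unadjusted p were 23.9% and 18.9%. The metallothionein MT1G, which binds zinc, was at -0.71 in late EGF minus serum (SE 0.14, adjusted p = 0.0807), beside SLC39A14 at -0.35, and the ferritin light chain FTL was at 0.59 (SE 0.11, adjusted p = 0.0767).

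The arrays were scaled alike by the authors, with a trimmed mean signal of 150.04 to 150.05. The serum array of 20 min stood apart in its dim range, with 33.3% of probe sets under a signal of 20 against 36.8% to 40.0% on the others. The keratins KRT5 and KRT14 ran from 3823 to 6975, and the epithelial markers were present on all arrays. Among markers of other cell types CD14 (86.1 to 286), ACTA2 (83.1 to 140.0) and COL1A1 (22.4 to 77.7) passed the filter on dim genes.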

How the data were processed

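RNA of 13 MCF10A samples was measured on Affymetrix arrays, 1 array each. Each deposited value is an intensity, a linear signal that the authors made with MAS5, per the submitters' processing notes. The MAS5 version is not given in the sources used here, and the arrays share 1 trimmed mean.

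Signals were transformed as log2 of signal plus 6 and quantile normalized. Gene symbols came from the platform annotation: 1043 probe sets with several symbols and 2108 with none were left out. Each of 11963 genes was read by its brightest probe set, and 7731 were kept by a filter at the 40th percentile of mean log2 values (4.68). Models were fitted with limma 3.58.1 in R 4.3.3, with Benjamini and Hochberg adjustment over the 7731 genes: 5 means for unstimulated cells and for early and late EGF and serum (8 residual degrees of freedom), EGF minus serum with time as a block (5), and its phases and interaction (4). Named were the members past the threshold or, with fewer than 3 of them, the 5 farthest from 0 in a comparison, the 6 brightest members and a fixed set of well-known carriers; the others were added after their values were seen. The members and lists were chosen with earlier results of these data known. Alternatives changed the offset, normalization, filter, probe-set choice, variance model and time coding, and left out each array, or, in part added later, both arrays of 20 min. On simulated data 187 of 200 genes changed 2-fold were recovered for late minus early and 129 for late EGF minus serum. The simulated arrays were independent, with a plain step and no time course within a phase. These counts therefore do not measure power in the real arrays. The members' own late minus early values, -0.62 to 0.48, were all smaller than a 2-fold change. Promoter windows came from RefSeq. Tables were made with pandas 2.3.3 and numpy 2.4.6 in Python 3.11.15, and plots with matplotlib 3.10.9.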

Additional observations from a re-analysis of the deposited data

Results flagged for a closer look

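The late difference of SLC26A2 between EGF and serum was singled out because the effects of the 2 stimuli differed by a test of the difference itself. It was -1.924 on the log2 scale (SE 0.22, limma adjusted p = 0.0221), with the means of the late EGF arrays below and of the late serum arrays above the unstimulated array. No group had enough arrays for a test of single outlying arrays.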

How the results depend on the processing

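The count of members past the threshold depended on the processing, and the cause was not tested. The counts below stand without the share of all genes called under each alternative, so they do not measure an excess among carriers. For late minus early it was 1, and it was 0 with no offset, no filter, time as a factor or both 20 min arrays left out, 5 with 4 times the offset, 2 without quantile normalization, 8 with the stricter filter and 9 with a variance trend and robust variances. For late EGF minus serum it was 1, and it was 0 with no filter, 2 with 4 times the offset, 6 with the stricter filter and 10 with the trended variances. For EGF minus serum over all times it was 0, against 4 with 4 times the offset, 4 with the stricter filter, 9 with the trended variances and 3 with no time block. The trended variances gave 3 for EGF minus serum early, 2 for the interaction and 4 for late minus early in serum, where the stricter filter gave 2. Leaving out 1 array at a time gave 0 to 4 for late minus early (4 without serum at 120 min), 0 to 1 for late EGF minus serum, for late minus early in EGF and for late minus unstimulated (the last 2 reached 1 without EGF at 120 min, SLC26A2 and SLC25A4), and 0 for the rest. Of 1000 alternative values for 45 gene results, all kept their direction, 948 kept their side of the threshold, 20 lost the call and 32 gained it. The 45 were picked as calls or largest differences in these same data. The 1000 values are not all separate. In the comparisons of EGF with serum, leaving out either array of a time drops that time and gives the same fit. Leaving out the unstimulated array leaves those fits unchanged. Changes of the filter or the variance model leave an estimate as it was. The kept direction was therefore partly fixed in advance. EGF and serum arrays were paired by time alone, and no pairing by replicate number exists with 1 array per condition. With 1 array per condition and no detection calls used here, differences in dim carriers are the least certain.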
